A study of Mus musculus with 46 samples.

Results

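The collagen genes of the mouse were followed through 2 conversions of embryonic fibroblasts, with the histone variant H3.3 and the marks H3K4me3 and H3K36me3 read at each gene. A gene was taken as a collagen gene when it was protein-coding in GENCODE vM1 (build mm9) and its symbol read Col, a number, a, and a number. This gave 43 of 22367 protein-coding gene records. By the type of chain they encode, 11 are fibrillar collagens, 6 type IV (basement membrane), 6 type VI (beaded filament), 9 fibril-associated, 4 network-forming or anchoring, 2 multiplexins and 4 transmembrane collagens, and Col28a1 stands apart.

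The data were ChIP-Seq peak lists of mouse embryonic fibroblasts (MEFs) turned into induced pluripotent stem cells (iPSCs), or into blood-type cells by transdifferentiation. There were 16 H3.3 lists, 7 of H3K4me3 and 7 of H3K36me3, and each group had 1 library. The fibroblasts for reprogramming came from embryos with an IRES-EGFP cassette after the Oct4 stop codon. D0 is these fibroblasts without factors, and D3 is day 3 after retroviral Oct4, Sox2, Klf4 and c-Myc. The paper lists mESC, KOSR or FF medium for reprogramming, all with LIF and without a feeder layer. FF medium also held ascorbic acid, bFGF and CHIR99021, and the paper does not say which medium these libraries had. Cells were sorted by the fibroblast surface protein Thy-1 on days 6 and 9 and by the early pluripotency antigen SSEA-1 on days 12 and 16. D6T-, D9T-, D12S+ and D16S+ are the fractions on the way to iPSCs, called successful below, and D6T+, D9T+, D12S- and D16S- are the unsuccessful fractions of the same days. The route ends in fully reprogrammed iPSCs, and ESD3, an established mouse embryonic stem cell line, stood beside them with H3.3 only. For transdifferentiation, fibroblasts depleted of cells with blood surface markers (MEF, day 0) received Scl, Lmo2, Bmi1 and Runx1 and were kept on inactivated OP9 stromal cells with cytokines, with libraries on day 4 (D4) and from sorted cKit+ and cKit- cells. These 4 libraries had H3.3 only. In D4 and the cKit fractions any OP9 signal cannot be told apart from that of the converted cells, and the cKit+ cells were sorted for cKit, a receptor of blood progenitors.

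Collagens are secreted or membrane proteins whose chains wind into helices. Fibrillar collagens, chiefly types I and III, carry the load in connective tissue and are made in bulk by fibroblasts, type VI forms a beaded network around cells, and type IV builds the sheet under epithelia and endothelia. H3.3 is put into chromatin outside DNA replication, at promoters, enhancers and the bodies of active genes, H3K4me3 marks promoters, and H3K36me3 covers transcribed gene bodies towards their end.

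The libraries held 13.2 to 91.8 M tags, and the share of tags inside H3.3 peaks ran from 1.65% in cKit+ to 37.2% in D4. A gene was called bound where a peak touched its window, the gene with 1 kb on either side. Its level is the tags in peaks inside the window, per 10 M tags of the library and per kb of window. A level of 0 means only that no region passed the authors' peak threshold. Collagen genes are long, with a median window of 116 kb (9.11 to 421 kb) against 17.4 kb over all genes, so a chance touch by a peak is likelier at them, and the covered share of the window is given beside the counts. The 6 fibroblast marker genes (Thy1, Twist2, Prrx1, Pdgfrb, S100a4 and Fbln2) were all bound in D0, MEF and D4, with summed levels of 70.2, 44.5 and 87.1, and only 2 were bound in iPSCs, with a summed level of 0.289. All 6 pluripotency markers were bound in D16S+, iPSCs and ESD3. In D0, 3 of these 6 were bound, with Dppa5a at 10.5 carrying nearly all of the summed level of 10.7. The cKit+ library had a peak at only 1 of 5 blood markers, Cd34 at 0.394, and none at Kit, Ptprc, Gata1 or Itga2b, so its label was not borne out by its peaks. Of the same 5 markers 3 were bound in cKit-, 3 in D0 and 2 in MEF, with Itga2b at 5.38 and Cd34 at 2.45 in D0. Peaks at these markers therefore did not separate the cKit fractions from fibroblasts. With 1 library a group no test between groups could be made. Intervals are 95% intervals, Wilson for shares and exact Poisson for levels, and cover counting error only. In these bulk samples fewer cells carrying H3.3 at a gene and less H3.3 per cell cannot be told apart.

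The sequences just upstream of the genes that the results turn on are shown first, since their CpG content is set beside H3K4me3 further on. They are read 5′ to 3′ on the gene's strand from mm9. Capitals mark matches by letters on either strand, which are a description and not sites. A CCAAT box was searched for by its name's letters or, when read from the opposite strand of the genome, by ATTGG. The TATA box was searched for by the letters TATAAA or, when read from the opposite strand of the genome, by TTTATA. The GC box was searched for by the letters GGGCGG or, when read from the opposite strand of the genome, by CCGCCC. Col1a1 and Col1a2 (the chains of type I collagen), Col3a1 (type III) and Col6a1 (type VI, the gene with the study's ChIP primers) carry the fibroblast pattern, and Col18a1 and Col9a2 are shown, chosen after their values were seen, as the leading H3.3-bound gene in iPSCs and as one bound there but not in D0.
Col1a1, chr11:94797288-94797537, plus strand: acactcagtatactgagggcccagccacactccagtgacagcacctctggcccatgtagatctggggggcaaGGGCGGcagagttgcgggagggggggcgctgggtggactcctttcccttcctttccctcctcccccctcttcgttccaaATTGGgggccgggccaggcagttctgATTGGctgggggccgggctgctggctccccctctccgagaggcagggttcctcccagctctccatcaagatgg
Col1a2, chr6:4455370-4455492, plus strand, the bases before the second annotated start that lie in no exon: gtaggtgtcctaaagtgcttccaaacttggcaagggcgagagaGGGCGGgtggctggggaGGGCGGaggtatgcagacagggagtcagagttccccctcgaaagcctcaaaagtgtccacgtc
Col3a1, chr1:45368133-45368382, plus strand: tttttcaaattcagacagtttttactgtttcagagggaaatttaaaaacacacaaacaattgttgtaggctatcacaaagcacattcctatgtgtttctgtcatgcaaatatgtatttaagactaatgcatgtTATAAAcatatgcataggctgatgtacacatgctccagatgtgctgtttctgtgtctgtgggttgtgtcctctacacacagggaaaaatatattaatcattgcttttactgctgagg
Col6a1, chr10:76188914-76189163, minus strand: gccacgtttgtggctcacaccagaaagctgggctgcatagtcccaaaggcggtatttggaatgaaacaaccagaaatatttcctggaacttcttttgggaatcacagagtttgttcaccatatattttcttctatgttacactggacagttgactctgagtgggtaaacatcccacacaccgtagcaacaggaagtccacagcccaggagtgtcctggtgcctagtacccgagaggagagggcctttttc
Col18a1, chr10:76629294-76629543, minus strand: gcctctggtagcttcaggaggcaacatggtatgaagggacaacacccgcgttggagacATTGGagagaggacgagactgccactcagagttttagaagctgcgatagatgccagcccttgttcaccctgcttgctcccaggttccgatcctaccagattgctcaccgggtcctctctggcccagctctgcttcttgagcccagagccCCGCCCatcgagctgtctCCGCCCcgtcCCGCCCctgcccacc
Col9a2, chr4:120711740-120711989, plus strand: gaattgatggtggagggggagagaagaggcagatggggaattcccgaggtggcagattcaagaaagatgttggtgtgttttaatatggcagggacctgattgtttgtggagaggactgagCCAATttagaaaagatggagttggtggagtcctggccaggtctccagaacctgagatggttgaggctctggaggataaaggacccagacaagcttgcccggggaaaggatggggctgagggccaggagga

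The Col1a1 stretch held 7 CpG dinucleotides in 250 bases, 2 CCAAT boxes and 1 GC box. The Col3a1 stretch held no CpG and 1 TATA box, and the Col18a1 stretch held 11 CpG and 3 GC boxes. Over the 250 bases upstream of all 43 collagen genes, 17 held a CCAAT box (39.5%, against 35% of all genes), 22 a GC box (51.2% against 39.6%), 5 a TATA box (11.6% against 12.3%) and 0 the AP-1 letters TGACTCA or TGAGTCA (against 3.85%). For Col1a2, RefSeq places the start 804 bp downstream of the outermost GENCODE start used for the window. Col4a1 and Col4a2 start head to head and overlap by 22 bp, so they share a promoter, whose bases lie in annotated exons and are not printed.

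H3.3 peaks were found at 39 of 43 collagen genes in D0 (90.7%, interval 78.4 to 96.3), where 61.9% of all genes were bound. Along the route D3 had 35 bound (57.3% of all genes), D6T- 33 (60.6%), D9T- 27 (58.3%), D12S+ 17 (50.2%), D16S+ 10 (43.4%) and the iPSCs 21 (61.2%). The share of collagen genes bound was thus above that of all genes at the start and below it from day 12. The intervals were 26.4 to 54.4% in D12S+, 13.2 to 37.7% in D16S+ and 34.6 to 63.2% in iPSCs. Of these only the D16S+ interval lay wholly below the share of all genes. These later counts depend on the peaks kept: with equal numbers of top-scoring peaks the iPSCs had 11 bound, close to D16S+ with 10, and with peaks of at least 4-fold over input D9T- had 14, D12S+ 10 and D16S+ 5. Peaks covered a mean of 20.5% of a collagen window in D0 against 14.8% over all genes, 8.32% against 10.9% in D3, and 2.21% against 13% in iPSCs, so by mean coverage the collagen genes lay below all genes in D3 and iPSCs. The median coverage was 6.51% against 3.82% in D0, 2.22% against 1.77% in D3 and 0% against 3.06% in iPSCs, so that D3 lay above all genes by the median. In ESD3, 18 were bound (52.1% of all genes). Among the unsuccessful fractions D6T+ had 33 bound (53.1%), D9T+ 30 (55%), D12S- 31 (63.5%) and D16S- 30 (56.7%). In transdifferentiation 37 were bound in MEF (53.3%), 43 in D4 (72.1%), 22 in cKit+ (33.2%) and 13 in cKit- (31.8%).

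**Figure D1:**
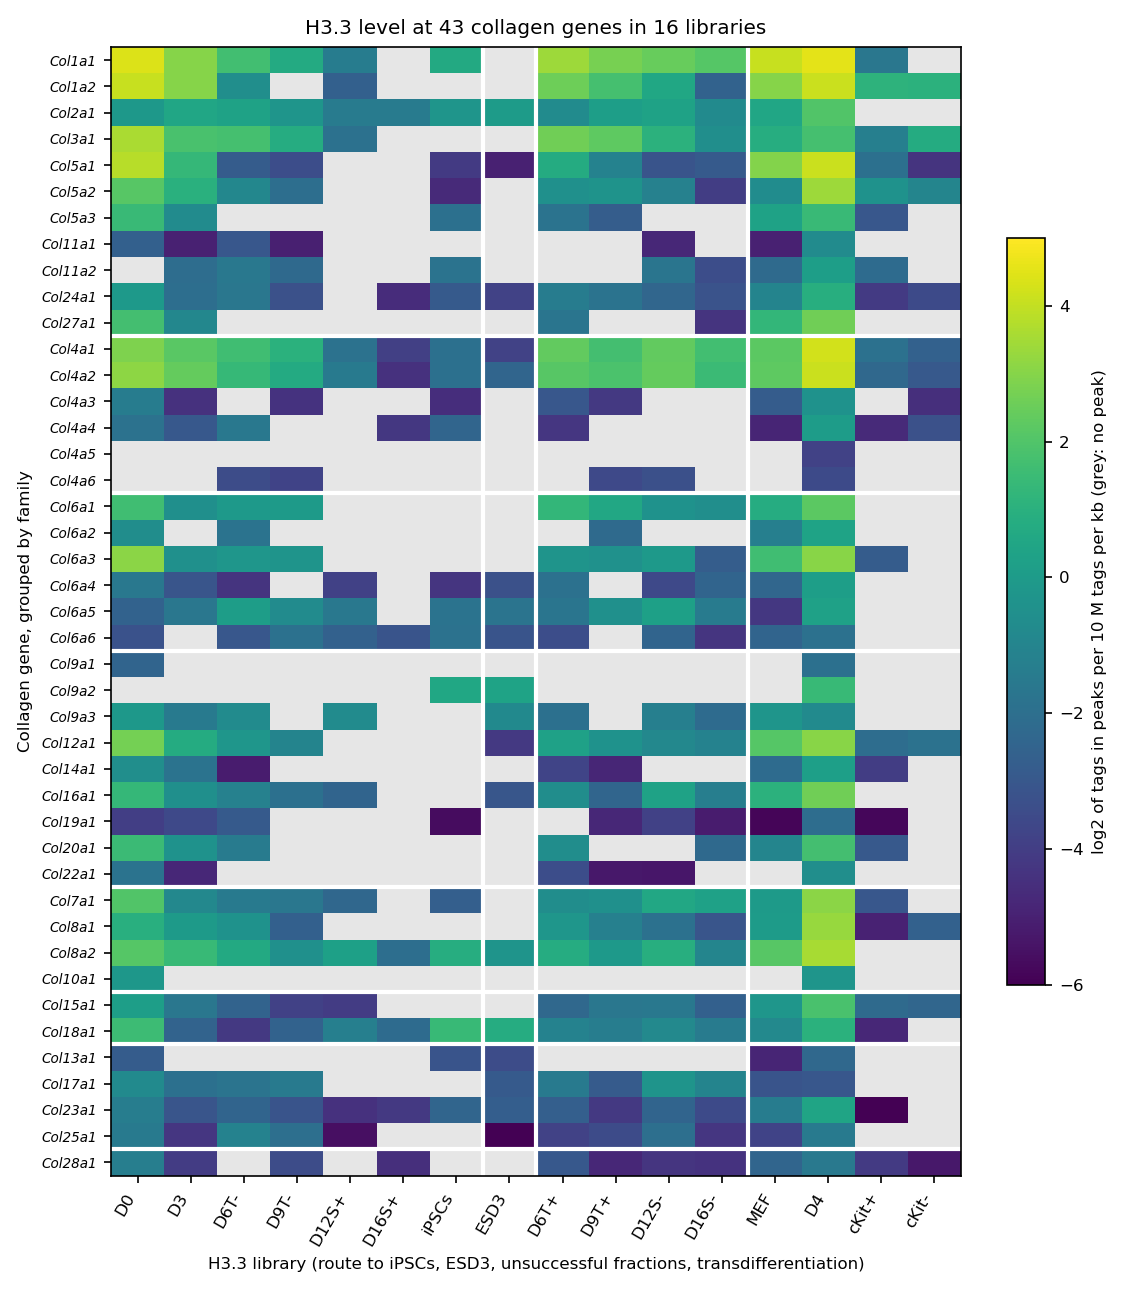
H3.3 level of the 43 collagen genes (vertical axis, grouped by family) in the 16 H3.3 libraries (horizontal axis), as log2 of tags in peaks per 10 M tags per kb of window, grey where there was no peak. Col1a1, Col1a2, Col5a1, Col4a1 and Col4a2 are bright in D0, MEF and D4, while Col3a1 is brightest in D0. Most genes are grey in D12S+, D16S+, iPSCs and cKit-, and 21 of the 43 are grey in cKit+.

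**Figure D2:**
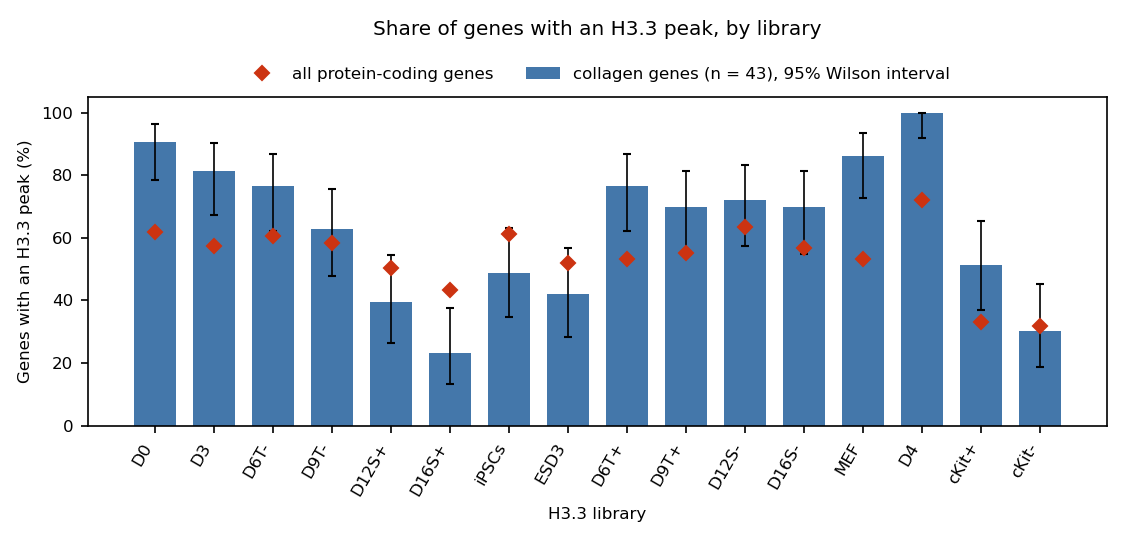
Percent of the 43 collagen genes with an H3.3 peak in each library (bars, with 95% Wilson intervals for counting error), and the percent of all 22367 protein-coding genes (diamonds). Bars stand above the diamonds in D0, D3, MEF and D4 and below them in D12S+, D16S+, iPSCs and ESD3.

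From D0 to iPSCs, 33 collagen genes were at least 2-fold lower or without a peak at the end, where 28.1% of all genes were, and 3 were at least 2-fold higher or newly bound, against 17.3% of all genes. Only genes bound in D0 can be lower or lost. Of all 13837 genes bound in D0 6274 were in that class, and of the 39 collagen genes 33 were. Of the 33, 20 had no peak left in iPSCs. The remaining genes were 5 within 2-fold and 2 without a peak in either library. Over the 19 collagen genes bound in both, the median log2 ratio of iPSCs to D0 was -2.71, against -0.47 over all genes bound in both. The highest of the 7 route levels lay in D0 for 33 collagen genes (76.7%), and for 22% of all genes. That count, too, needs a peak in D0.

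The fibrillar genes held the 4 highest levels in D0. Col1a1, which encodes the alpha chain present in pairs in type I collagen, had a level of 21.6 in D0 (interval 20.3 to 22.9). It was at 8.05 on day 3, 3.16, 1.65 and 0.389 in the successful fractions of days 6, 9 and 12, without a peak on day 16, and at 1.59 in iPSCs. A single D0 peak of 26.9 kb (chr11:94793075-94820021) ran over the whole of the Col1a1 window. In iPSCs 14.3% of that window was covered, by 3 peaks, and the level was 13.6-fold below that in D0.

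Col1a2, the partner chain, stood at 16.7 in D0 and 8.07 in D3, then at 0.671 in D6T-, had no peak in D9T-, D16S+ and iPSCs, and was at 0.161 in D12S+. Col3a1, the chain of type III collagen, stood at 12.1, 3.56, 3.38, 1.75 and 0.271 from D0 through D12S+, with no peak in D16S+ or iPSCs. Both genes therefore had no H3.3 peak in the final cells, although 91.7% of the Col1a2 window and 74.7% of the Col3a1 window had been covered in D0. The fold over input of the Col3a1 peaks was low, a median of 3.11 in D0, and its D0 level was 0.461 when only peaks of at least 4-fold were kept.

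Col5a1 encodes a chain of type V collagen, which sits inside type I fibrils and governs their width. Its level was 14, 2.53, 0.144 and 0.0943 from D0 through D9T-, there was no peak in D12S+ and D16S+, and it was 0.0575 in iPSCs, which was 244-fold below D0. Col5a2, its partner, went from 4.36 in D0 to 0.0389 in iPSCs. Among fibrillar genes 10 of 11 were bound in D0 and 7 of 11 in iPSCs. Col2a1 and Col11a2 departed from this in the family. Col2a1, the main cartilage collagen, had a peak in all 7 route libraries and was at 0.899 in D0 and 0.842 in iPSCs. Col11a2 had no peak in D0, and stood at 0.238 in D3, 0.331 in D6T-, 0.21 in D9T- and 0.282 in iPSCs.

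The type VI genes split by member. Col6a3, the long chain, had a level of 8.6 in D0, 0.711 in D3, 0.856 in D6T- and 0.811 in D9T-. Col6a1 was at 3.08 in D0, 0.69 in D3, 0.943 in D6T- and 1.01 in D9T-, and Col6a2 at 0.652 in D0 and 0.282 in D6T- with no peak in D3 or D9T-. These 3 genes, which encode the chains of the widespread form of the protein, had no H3.3 peak in D12S+, D16S+, iPSCs or ESD3. The members with restricted expression, Col6a4, Col6a5 and Col6a6, were the type VI genes bound in iPSCs, at levels up to 0.281, and Col6a6 was 2.61-fold higher there than its 0.107 in D0.

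The study's Col6a1 primers were located in mm9 to see which peaks they meet. The H3.3 amplicon, shown with the primers in capitals, lies 0.8 kb upstream of the gene start, outside the gene.
Col6a1 H3.3 amplicon, chr10:76189638-76189788: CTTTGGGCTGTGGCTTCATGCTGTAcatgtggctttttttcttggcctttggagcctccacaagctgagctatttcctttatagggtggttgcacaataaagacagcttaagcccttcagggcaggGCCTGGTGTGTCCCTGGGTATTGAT
An H3.3 peak lay on it in 10 libraries, namely D0, D3, D6T-, D9T-, the 4 unsuccessful fractions, MEF and D4, and in none of D12S+, D16S+, iPSCs, ESD3, cKit+ and cKit-. An H3K36me3 amplicon of 175 bp lies in an intron, 15.7 kb into the gene, and had an H3K36me3 peak in D0, D3, D6T- and D9T- of the 7 libraries with this mark.
Col6a1 H3K36me3 amplicon, chr10:76173145-76173319: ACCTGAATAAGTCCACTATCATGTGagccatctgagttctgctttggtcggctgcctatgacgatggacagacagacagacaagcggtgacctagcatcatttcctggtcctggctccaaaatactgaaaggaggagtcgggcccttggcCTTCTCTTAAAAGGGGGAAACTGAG
The other H3K36me3 amplicon, of 151 bp in an exon (chr10:76174408-76174558), had a peak in D0 and D9T- and none in the other 5 libraries.

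Among the basement membrane genes Col4a1 and Col4a2, the pair found in nearly all basement membranes, behaved apart from the other 4. Col4a1 stood at 7.37, 4.57, 3.12, 2.03, 0.28, 0.0665 and 0.261 in D0, D3, D6T-, D9T-, D12S+, D16S+ and iPSCs. Col4a2 stood at 8.68, 5.3, 2.58, 1.65, 0.359, 0.0458 and 0.264 in the same libraries. Their D16S+ call is 1 peak of 0.5 kb (chr8:11311714-11312214), which lies in Col4a1 and reaches Col4a2 only through its flank. The pair was thus bound at every step but 28.3-fold and 32.8-fold lower in iPSCs than in D0. Col4a3 and Col4a4, kidney and lung chains, did not pass 0.382 on the route, Col4a6 was bound in 2 route libraries at up to 0.0915, and Col4a5 was bound in none.

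Fibril-associated collagens, which decorate larger fibrils, were bound at 8 of 9 genes in D0 and 2 of 9 in iPSCs. Col12a1 led them at 6.49 in D0 and had no peak from D12S+ on. The network and anchoring genes went from 4 of 4 to 2 of 4. Among them Col7a1, the anchoring fibril of skin, was at 4.06 in D0 and 0.157 in iPSCs, and Col8a2 at 4.32 and 1.79. Of the multiplexins Col15a1 was at 1.11 in D0 with no peak in iPSCs, while Col18a1, whose end fragment is endostatin, was bound throughout. The transmembrane genes were low in D0, between 0.142 and 0.594, and 2 of 4 were bound in iPSCs. Some windows overlap another gene, with which their peaks are shared in part: Col10a1, at 0.896 in D0 with no other route peak, overlaps Nt5dc1, Col9a3 overlaps Tcfl5, Col18a1 overlaps Slc19a1 and Col1a1 overlaps Gm17329.

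**Figure D3:**
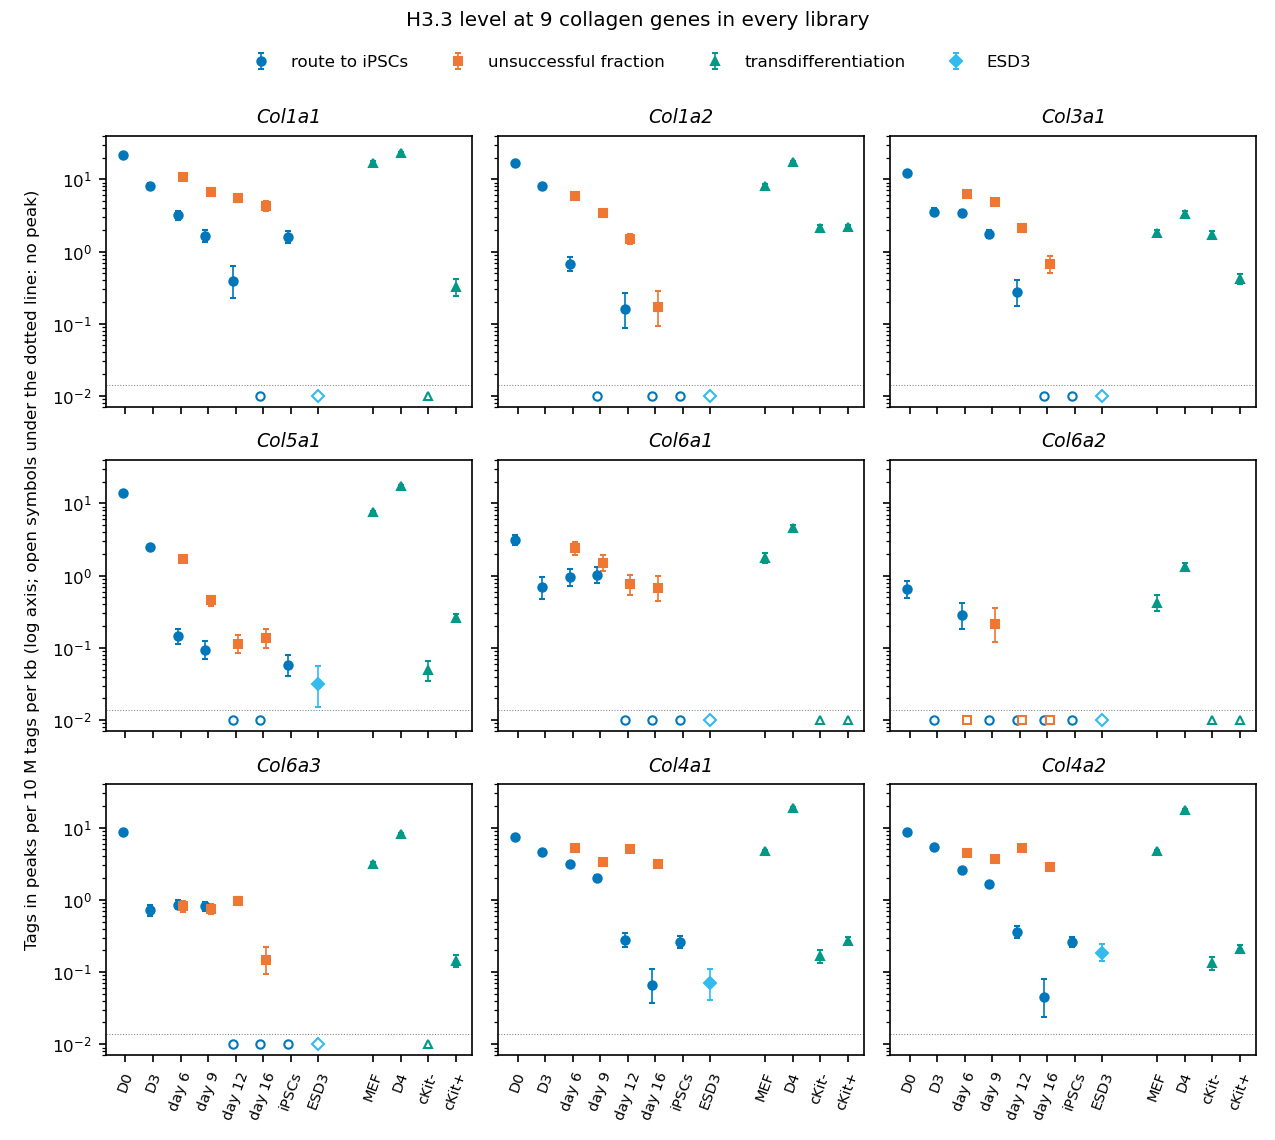
H3.3 level (log axis, tags in peaks per 10 M tags per kb of window) of the 9 collagen genes named by role, in D0, D3, the fractions of days 6 to 16, iPSCs and ESD3 and in transdifferentiation. Error bars are 95% exact Poisson intervals for counting error and open symbols stand for no peak. On each day the successful fraction (circles) is below the unsuccessful one (squares) for Col1a1, Col1a2, Col3a1 and Col5a1 or has no peak.

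By count the difference was present on day 3. Between D0 and D3, 32 collagen genes were at least 2-fold lower or lost, against 25.1% of all genes, and 1 was higher or gained, against 6.83%. The lower or lost class needs a D0 peak. Of all 13837 genes bound in D0 5607 were in it, and of the 39 collagen genes 32 were. Over the 34 collagen genes bound in both, the median log2 ratio was -1.79, and -0.54 over all genes. Col18a1 was 16.3-fold lower on day 3 (2.87 to 0.176), Col6a3 12.1-fold, Col5a1 5.53-fold, Col1a1 2.68-fold and Col1a2 2.07-fold. Col4a1 and Col4a2 were within 2-fold, at 1.61-fold and 1.64-fold lower. D3 carried 11.3% of its tags in peaks and D0 19.1%, and the part of this in the counts was not tested. The comparisons of D0 with D3, iPSCs and MEF share the D0 library.

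The sorted fractions asked whether the collagen genes of the same day differed between cells on the way to iPSCs and cells that were not. On day 6, 12 collagen genes were at least 2-fold lower or lost in D6T- (5.44% of all genes) and 10 higher or gained (31%). On day 9 the numbers were 16 lower (8.01%) and 7 higher (16.9%). On both days the whole set of genes leaned towards the successful fraction, with median log2 ratios of 0.79 and 0.27 over genes bound in both, while collagen genes had medians of -0.50 and -0.63. On day 12 the numbers were 26 lower (49.6%) and 0 higher (2.51%), and on day 16 they were 25 lower (41%) and 2 higher (6.15%), so that on these later days the background moved the same way. Only genes bound in the unsuccessful fraction can be lower or lost. Of these, 1216 of 11873 genes were on day 6, 1792 of 12292 on day 9, 11091 of 14193 on day 12 and 9171 of 12674 on day 16. The collagen counts were 12 of 33, 16 of 30, 26 of 31 and 25 of 30. On days 12 and 16 most genes bound there, collagen or not, were therefore lower or lost. Over genes bound in both, the median log2 ratio was -2.46 at collagen genes and -1.56 over all genes on day 12, and -0.72 and -1.33 on day 16, where 9 collagen genes were bound in both and the collagen median was the smaller difference. The share of tags in peaks was 6.93% in D12S+ and 22% in D12S-, and 4.88% in D16S+ and 12.2% in D16S-, and its part in the late counts was not tested.

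By gene, 15 collagen genes had a lower level in the successful fraction on all 4 days, against 4.92% of all genes, and 0 had a higher level on all 4, against 0.639%. They were Col1a1, Col1a2, Col3a1, Col5a1, Col5a2, Col24a1, Col4a1, Col4a2, Col6a1, Col12a1, Col7a1, Col8a1, Col8a2, Col15a1 and Col18a1. This count sets no fold limit and needs a peak in all 4 unsuccessful fractions, which is likelier at long genes. Only Col1a1, Col1a2 and Col5a1 were at least 2-fold lower or lost on all 4 days, while Col4a1, Col12a1 and Col18a1 were on 2 days and Col8a2 on 1. Col1a1 stood at 10.6, 6.72, 5.46 and 4.28 in the unsuccessful fractions of days 6, 9, 12 and 16, and at 3.16, 1.65, 0.389 and no peak in the successful ones. Col1a2 stood at 5.89, 3.37, 1.48 and 0.17 against 0.671, no peak, 0.161 and no peak. Both chains of type I collagen were therefore lower on every sampled day, and the unsuccessful fractions were themselves below D0.

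Col3a1 stood at 6.19, 4.83, 2.12 and 0.667 in the unsuccessful fractions. Its day 6 values, 6.19 and 3.38, lay within 2-fold of each other. Col5a1 stood at 1.71, 0.453, 0.114 and 0.137 in the unsuccessful fractions, and Col6a1 at 2.4, 1.51, 0.756 and 0.677. Col6a3 did not separate the fractions early: its levels in the unsuccessful fractions were 0.812, 0.749, 0.964 and 0.148, and those of D6T- and D9T- were 0.856 and 0.811. Col6a2 was bound in D9T+ (0.216) and in none of D6T+, D12S- and D16S-. Col4a1 kept 5.18, 3.3, 5.09 and 3.14 in the unsuccessful fractions and Col4a2 4.41, 3.69, 5.26 and 2.84, so both were lower in the successful fraction on every day. On day 6 Col4a1 was 1.66-fold and Col4a2 1.71-fold lower, on day 9 they were 1.63-fold and 2.24-fold lower, and on day 12 18.1-fold and 14.6-fold lower.

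The 10 collagen genes that were higher or gained in D6T- were Col2a1, Col11a1, Col11a2, Col4a4, Col4a6, Col6a2, Col6a5, Col9a3, Col19a1 and Col25a1. Col6a5 was at 1.1 in D6T- and 0.306 in D6T+, Col25a1, a neuronal transmembrane collagen, at 0.465 and 0.0711, and Col2a1 at 1.27 and 0.62. By day 12 Col6a5, Col25a1 and Col2a1 were lower in the successful fraction too, with Col6a5 at 0.327 in D12S+ and 1.18 in D12S-.

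The order of collagen genes by H3.3 level in iPSCs differed from that in D0. Col18a1 led at 2.63, ahead of Col8a2 at 1.79, Col1a1 at 1.59, Col9a2 at 1.47 and Col2a1 at 0.842, where the D0 order had been Col1a1, Col1a2, Col5a1, Col3a1 and Col4a2. Col18a1 stood at 2.87 in D0, at 0.176 on day 3, at 0.055, 0.171, 0.42 and 0.227 in the successful fractions by day, at 2.63 in iPSCs and at 1.74 in ESD3. It was lower in every intermediate than in D0 and iPSCs, and the D0 and iPSC intervals, 2.68 to 3.06 and 2.49 to 2.78, overlapped. In MEF, the other fibroblast library, it was at 0.564, which was 5.08-fold below D0, so the high fibroblast level rests on the D0 library. The widest D0 peak, of 2.85 kb (chr10:76614823-76617678), lay within the widest iPSC peak, of 7 kb (chr10:76613231-76620234), while another iPSC peak of 3.78 kb (chr10:76625375-76629158) ended just inside the gene start and overlapped none of the 3 highest-scoring D0 peaks.

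Col9a2, a cartilage fibril-associated collagen, was bound in iPSCs (1.47) and ESD3 (1.32), in D4 (2.65) and in none of the other 13 H3.3 libraries. It and Col11a2 were the collagen genes bound in iPSCs and not in D0. Between iPSCs and ESD3, 11 collagen genes were at least 2-fold lower or lost in ESD3 (33.9% of all genes) and 6 higher or gained (6.47%). Lower or lost needs a peak in iPSCs, and 7585 of all 13683 genes bound there were in that class, against 11 of the 21 collagen genes. Of the 9 genes named by role 3 were bound in ESD3, Col5a1 at 0.0313, Col4a1 at 0.0696 and Col4a2 at 0.186. Col1a1, at 1.59 in iPSCs, had no peak in ESD3, and Col2a1 and Col18a1 lay within 2-fold. The iPSC library was the deeper, with 41.2 M tags against 21.6 M.

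In transdifferentiation Col1a1, Col1a2 and Col5a1 had the highest levels in the starting MEF library, as they had in D0. Between D0 and MEF, fibroblasts of the different conversions, 22 collagen genes were at least 2-fold lower or lost in MEF (42.1% of all genes) and 1 was higher or gained (4.75%), with a median log2 ratio of -1.03 over 36 genes bound in both and -1.29 over all genes. Only genes bound in D0 can be lower or lost, and 9410 of all 13837 such genes were, against 22 of the 39 collagen genes. These values are the size of difference seen here between libraries of like cells. Col1a1 stood at 21.6 in D0 and 16.9 in MEF and Col5a1 at 14 and 7.71, both within 2-fold, while Col3a1 was 6.69-fold lower in MEF.

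On day 4 the collagen genes had more H3.3 than in MEF: 36 were at least 2-fold higher or gained, where 67% of all genes were, and 0 were lower or lost, where 0.988% were. The whole lists differed as well: D4 had 108179 H3.3 peaks and MEF 52862, and over genes bound in both the median log2 ratio was 1.85 at collagen genes and 2.31 over all genes. With the 25637 top-scoring peaks of each library, 26 of 43 were bound in D4, 22 were higher and 4 lower. Col1a1 was at 23.1 in D4, Col4a1 at 18.9, Col5a1 and Col4a2 at 17.6 and Col1a2 at 17.4. A single D4 peak of 146 kb (chr8:11186741-11332597) covered the whole Col4a1 window. Col1a1 lay within 2-fold of its MEF level, whereas Col4a1 was 4-fold and Col5a2 16.2-fold higher than in MEF.

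Levels at collagen genes were low in the sorted end cells, where only 1.65% of cKit+ tags and 2.31% of cKit- tags lay in H3.3 peaks anywhere. In cKit+ 51.2% of collagen genes were bound, against 33.2% of all genes. From MEF to cKit+, 33 collagen genes were at least 2-fold lower or lost (42.9% of all genes) and 0 higher or gained (6.22%), with a median log2 ratio of -3.06 over 22 genes bound in both, against -1.60 over all genes. Only genes bound in MEF can be lower or lost. Of all 11917 genes bound in MEF 9595 were in that class, and of the 37 collagen genes 33 were. Col1a1 was at 0.321 in cKit+, 52.5-fold below MEF, and had no peak in cKit-. In cKit+ Col5a1 was at 0.262 and Col4a1 at 0.272, and in cKit- Col5a1 was at 0.0487. Col1a2 was the highest collagen gene in both cKit fractions, at 2.18 in cKit+ and 2.11 in cKit- against 8.08 in MEF. Col3a1 stood at 1.81 in MEF, 3.35 in D4, 0.418 in cKit+ and 1.71 in cKit-.

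Col6a1 stood at 1.78 in MEF and 4.64 in D4, and Col6a2 at 0.422 and 1.32, with no peak of either in the cKit fractions. Col6a3 was at 3.13, 8.26 and 0.143 in MEF, D4 and cKit+ with no peak in cKit-. Col4a1 was at 0.165 and Col4a2 at 0.132 in cKit-, and Col4a2 at 0.207 in cKit+. From cKit- to cKit+, 4 collagen genes were at least 2-fold lower or lost (15.2% of all genes) and 12 higher or gained (12.9%). These small differences rest on weak peaks, as only 0.253% of cKit+ peaks and 0.566% of cKit- peaks reached 4-fold over input, and cKit+ was the deeper library, with 91.8 M against 51.6 M tags.

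H3K4me3 was read over 1 kb on either side of the gene start, so that gene length has no part in it. A promoter peak was present at 36 of 43 collagen genes in D0 (64% of all genes). Col4a1 and Col4a2 start side by side, as do Col4a3 and Col4a4, and the members of each pair share their promoter peak. Each pair still counts as 2 promoters here and in the CpG groups below. D3 had 36 (62.6%), D6T- 34 (63.5%), D9T- 34 (62.5%), D12S+ 24 (60.3%), D16S+ 11 (43.6%) and the iPSCs 30 (62.3%). From D0 to iPSCs 29 were at least 2-fold lower or lost (48.2% of all genes) and 1 higher (2.81%). Only promoters marked in D0 can be lower or lost. Of all 14313 genes marked there 10776 were in that class, so most marked promoters were, as were 29 of the 36 collagen promoters. Tags in H3K4me3 peaks made up 30.4% of D0 and 12.7% of iPSCs, and the part of this in the counts was not tested. The median log2 ratio was -1.90 over the 30 genes with both peaks and -1.26 over all genes. From D0 to D3, 8 collagen promoters were at least 2-fold lower and none was lost, against 3.68% of all genes lower or lost.

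Col1a1 had an H3K4me3 level of 37.7 in D0 (tags in peaks per 10 M tags per kb of promoter), 40.6 on day 3, then 26.3, 22.1 and 6.18 in D6T-, D9T- and D12S+. It had no peak in D16S+ and was at 7.87 in iPSCs. Col5a1 was at 68.5 in D0 and 17 in iPSCs, and the shared Col4a1 and Col4a2 promoter at 62.4 and 29. Col6a3 was at 61.4 in D0 and 2.86 in D3. Col18a1 stood at 39.9 and 26.8, within 2-fold. Promoters of both highly and weakly H3.3-bound genes were marked in D0: Col11a1 had the highest H3K4me3 level, 77.6, with an H3.3 level of 0.162, and Col25a1 had 75.1 with 0.348.

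The 6 promoters that had a peak in D0 and none in iPSCs were those of Col3a1, Col5a2, Col5a3, Col6a1, Col6a3 and Col4a6. They were poor in CpG: the observed over expected CpG ratio within 1 kb of the start had a median of 0.229 (0.153 to 0.31). The 30 promoters with a peak in both had a median of 0.437 (0.287 to 0.817), and the 7 with a peak in neither 0.249 (0.0564 to 0.336). The ranges overlapped. Over all genes the corresponding medians were 0.277, 0.625 and 0.171, and in both sets the promoters with a peak in D0 and iPSCs had the highest median. The promoter of Col3a1, printed above with no CpG, is in the group without a peak in iPSCs, as is that of Col6a1, whose printed stretch held 4 CpG. Those of Col1a1, Col18a1 and Col9a2 are in the group with one, although the printed stretch of Col9a2 held only 2 CpG, so the 250 bases printed do not separate the groups.

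**Figure D4:**
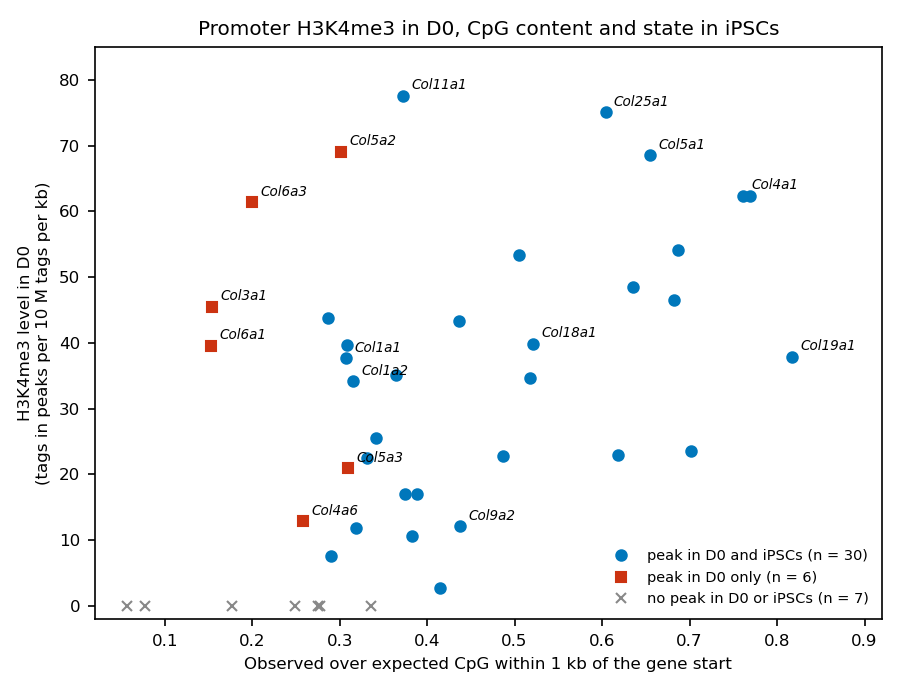
H3K4me3 level at collagen promoters in D0 (vertical axis, tags in peaks per 10 M tags per kb) against the observed over expected CpG ratio within 1 kb of the gene start (horizontal axis), by the state in iPSCs. The 6 promoters marked in D0 only (squares) all lie at or below a ratio of 0.31, and the 30 marked in both (circles) reach 0.817.

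In iPSCs 12 collagen genes had a promoter H3K4me3 peak and no H3.3 peak, as did 10.1% of all genes: Col1a2, Col11a1, Col27a1, Col4a5, Col6a2, Col9a3, Col12a1, Col14a1, Col16a1, Col8a1, Col15a1 and Col25a1. In D0, where 10.3% of all genes were of this kind, there were 4, Col11a2, Col4a5, Col4a6 and Col9a2. Col9a2 had an H3K4me3 level of 12.1 in D0 and 10.4 in iPSCs, so its promoter was marked in D0, where it had no H3.3 peak.

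H3K36me3, the gene body mark, was present at 26 of 43 collagen genes in D0 (49.7% of all genes). D3 had 21 (44.6%), D6T- 14 (38.8%), D9T- 23 (50.3%), D12S+ 6 (23.5%), D16S+ 5 (25.6%) and the iPSCs 7 (34.7%). From D0 to iPSCs 26 were at least 2-fold lower or lost (46.5% of all genes) and 1 was gained (3.59%). All 26 genes with the mark in D0 were thus in the lower or lost class. That class needs a D0 peak, which 11116 of all 22367 genes had, and 10400 genes were in it. Most genes marked in D0, collagen or not, were therefore lower or lost. Tags in H3K36me3 peaks made up 31.3% of D0 and 2.88% of iPSCs, and the part of this in the counts was not tested. With the 12322 top-scoring peaks of each list, 17 were bound in D0, 3 in iPSCs, and 17 were lower or lost. The highest H3K36me3 levels in D0 were those of Col1a2 at 35.4, Col3a1 at 34, Col12a1 at 33.3, Col6a1 at 25.2 and Col1a1 at 24.5, none of which had a peak in iPSCs.

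The values in between were not an even slope. Col1a2 stood at 35.4, 22.4, 1.8 and 3.95 from D0 through D9T-, had no peak in D12S+ and iPSCs, and was at 0.206 in D16S+. Col6a1 stood at 25.2, 4.69, 2.59 and 18.9 from D0 through D9T-, and Col4a1 at 7.39, 7.46, 4.37 and 13.4. D9T- was therefore above D6T- at these genes. Tags in H3K36me3 peaks made up 7.5% of D6T- and 42.4% of D9T-, and the estimated fragment length in the D6T- list was 444 bp against 120 to 158 bp in the others; their part in the difference was not tested. Col4a1 at 0.318, Col4a2 at 0.48 and Col18a1 at 0.234 had the highest H3K36me3 levels in iPSCs.

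All 3 marks met at 23 collagen genes in D0 (42.2% of all genes) and at 6 in iPSCs (30.8%), which were Col24a1, Col4a1, Col4a2, Col8a2, Col18a1 and Col13a1. The iPSC H3K36me3 call of Col8a2 rests on 1 tag in 0.039 kb of its window. Those of Col24a1 and Col13a1 rest on 1 peak of 0.5 kb each, with 15 and 17 tags. In D16S+ they met at Col4a1 and Col4a2 only (15.4% of all genes), by the H3.3 peak that both windows share. None of the 3 marks was present at 24 collagen genes in D16S+ (40.5%), 0 in D0 (26.6%) and 10 in iPSCs (28.2%).

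Along the genes, each divided into 5 equal parts, H3.3 in D0 was nearly even, covering 14.5, 12.3, 14.4, 14.3 and 13.1% of the base pairs from the 5′ to the 3′ part. H3K4me3 covered 10.6% of the first part and 1.38 to 2.29% of the others. H3K36me3 covered 8.6% of the first part and 21.4% of the last. In iPSCs the H3.3 coverage was 1.95, 1.2, 1.61, 0.432 and 0.648%. By pooled base pairs the D0 cover by H3.3 was therefore near even from the 5′ to the 3′ part, and that in iPSCs lay more in the 5′ parts. Pooling gives long and well covered genes more weight. The median window was 6.51% covered in D0 and 0% in iPSCs, so most single genes were not covered over their whole length. No such profile over all genes is given here.

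**Figure D5:**
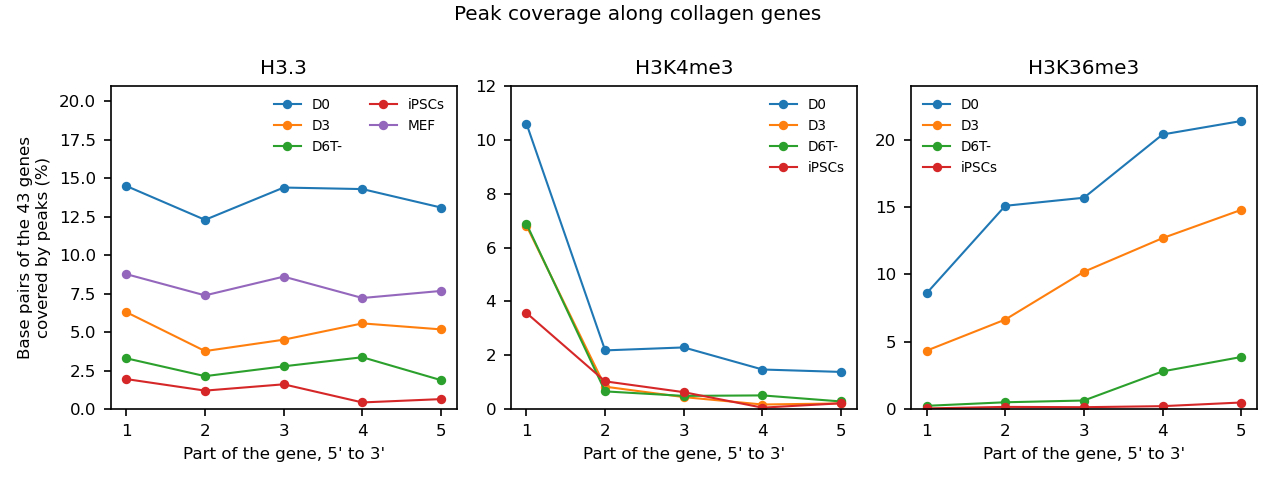
Percent of the base pairs of the 43 collagen genes covered by peaks (vertical axes) in 5 equal parts from the 5′ to the 3′ end (horizontal axis) for H3.3, H3K4me3 and H3K36me3 in selected libraries. H3.3 in D0 is near 14% in every part, H3K4me3 is highest in part 1 and H3K36me3 in part 5.

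Genes that fold, cut, cross-link, bind and degrade collagen were read in the same windows from D0 to iPSCs. Of 20 folding genes 12 were at least 2-fold lower or lost and 3 higher or gained. Of 11 processing and cross-linking genes 9 were lower or lost and 1 higher, of 8 matrix partners 6 and 0, of 8 receptors 5 and 0, and of 10 genes of degradation 8 and 1, each beside 28.1% and 17.3% of all genes. Lower or lost again needs a D0 peak, present at 19, 10, 6, 8 and 9 genes of the lists in that order. Serpinh1, the collagen chaperone HSP47, stood at 20.4 in D0 and 2.8 in iPSCs. Fkbp10, also in the folding list, was at 14 and 3.09. P4hb, a subunit of prolyl hydroxylase with wider roles in folding, was at 12.2 and 6.12. The genes with the highest D0 levels in the other lists were Pcolce (14.5), Bmp1 (13.8) and Loxl1 (13.1) for processing, Sparc (19.6), Fn1 (15.6) and Bgn (10.7) for matrix partners, Itgb1 (12.3), Ddr2 (7.54) and Mrc2 (6.44) for receptors, and Mmp14 (18.2), Timp2 (13.1) and Mmp2 (7.76) for degradation. In iPSCs Ppib (5.86), Plod3 (5.34), Ddr1 (3.92), Fn1 (3.9) and Sparc (3.88) were, with P4hb, among those bound at levels above that of every collagen gene. From MEF to cKit+ the lower or lost genes were 14 of 20, 10 of 11, 6 of 8, 6 of 8 and 6 of 10 in the same order.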

How the data were processed

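Of the 46 samples, 30 had peak lists and 16 were inputs, which entered only through the peaks' input values. Per the submitters' processing notes, reads were mapped to mm9 with STAR and peaks called with HOMER (versions not given in the sources used here), and per the file headers the authors called each library separately against an input. The deposited score is a signal, the normalized tag count per 10 M tags. The deposited fold over input is a ratio, of at least 2 in the H3.3 lists and at least 4 in the others, and the limit on the authors' Poisson p-value was 0.0001. Replicates were not pooled.

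Peaks overlapping a window by at least 1 bp were counted. A level is the sum over peaks of the score times the share of the peak inside the window, divided by the window length in kb (2 kb for promoters). A change was called at 2-fold, or where a peak was present in only 1 library. Groups had 1 library each, so no test was made. All per-sample columns were mapped to samples (0 unmapped). The members and lists were chosen with earlier results of these data known. The study itself had named collagen synthesis from its H3.3 ChIP-Seq together with RNA-Seq of H3.3-depleted cells, which is not among these samples. No count here is therefore independent evidence of a direction at collagen genes. Genes were named by role (9 genes), as the 5 highest in D0, iPSCs and D4, as bound in iPSCs and not in D0, as H3K4me3-marked in iPSCs without H3.3, and, of pathway genes, as the 3 highest of each list in D0. Others named as exceptions, as examples of their family, or among pathway genes bound in iPSCs were chosen after their values were seen. Alternatives were the top-scoring peaks in equal numbers, a fold over input of at least 4, a 3-fold call, genes without flanks, peaks lying mostly inside the window, the covered share of the window, and whole peak scores. The measures were tested on simulated peaks. Python 3.11.15, numpy 2.4.6 and scipy 1.17.1 were used, and promoters were matched to RefSeq for 35 of 43 symbols, all found in mm9.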

Additional observations from a re-analysis of the deposited data

Results flagged for a closer look

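Opposite directions were seen in the early steps of the conversions. In all, 25 collagen genes were at least 2-fold lower or lost from D0 to D3 and at least 2-fold higher or gained from MEF to D4, which was also the case for 22.7% of all genes. Among them were Col1a2, Col5a1, Col6a1, Col6a3, Col7a1 and Col18a1. Being lower or lost needs a D0 peak, which 90.7% of collagen genes and 61.9% of all genes had. The difference between the steps was not tested, and D4 had the most H3.3 peaks, 108179.

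In the sorted fractions 12 collagen genes, among which Col11a1, Col6a2, Col23a1 and Col25a1 are also in the set of 25, were at least 2-fold lower or lost in the successful fraction on 1 day and at least 2-fold higher or gained on another, as were 32.2% of all genes: Col2a1, Col11a1, Col11a2, Col4a6, Col6a2, Col6a5, Col9a3, Col19a1, Col17a1, Col23a1, Col25a1 and Col28a1. None of these is among the 5 highest in D0. The difference between days was not tested.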

How the results depend on the processing

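Of 169 recomputed counts over 34 results, 151 stayed within 1.5 times the reported count. With equal numbers of top-scoring peaks (34062 for H3.3 in reprogramming, 25637 in transdifferentiation, 12322 for H3K36me3), the bound collagen genes were 11 in iPSCs, 18 in D16S- and 26 in D4. Under that setting 16 were lower or lost on day 16, 3 were higher on day 9, and 22 were higher and 4 lower from MEF to D4. For H3K36me3 it gave 17 in D0, 3 in iPSCs and 17 lower or lost. From D0 to MEF it gave 11 lower or lost, in a comparison added after seeing the data. From D0 to iPSCs it gave 29 lower or lost, 27 of them among the 33 reported.

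Keeping peaks of at least 4-fold over input left 14 bound in D9T-, 10 in D12S+ and 5 in D16S+, with 5 higher or gained from D0 to iPSCs and 4 higher on day 9. A 3-fold call left 10 lower and 3 higher on day 9. Of 45 recomputed D0 levels of the 9 genes named by role, 28 stayed inside their Poisson interval. The Col1a1 level was 30.9 with whole peak scores. Col6a1 was 2.26 without flanks and 0.326 with peaks of at least 4-fold, and Col6a2 was 0 with equal numbers of top-scoring peaks.

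Each group had 1 library, so replicates could not be paired between groups, and no library was left out. A fit with the 4 days as pairs of fractions, which differ in day and sort marker, was not run, and the counts by day only describe them. The cKit lists, with 1.65% and 2.31% of tags in peaks, limit what can be called there, and a gene without a peak is not shown to lack H3.3.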
